A study of Mus musculus with 6 samples.

Results

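Paraspeckles and nuclear speckles were followed through 9 genes in islets of Langerhans, the endocrine clusters of the pancreas. The members were chosen by name: the long noncoding RNAs Neat1 and Malat1, the paraspeckle protein genes Sfpq, Nono, Pspc1, Rbm14 and Tardbp, and the speckle scaffold genes Srrm2 and Son. All 9 were found among the 24407 genes of the deposited count table, and all 9 were among the 14539 genes tested after removal of low counts. The choice was made with their counts in both genotypes known, so the differences of the members between genotypes are given as a description, without a test.

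The islets came from wild-type mice (WT) and from lmna LCS mice, titled KIKI in the labels, which express lamin C as their only product of Lmna, per the series title. Both groups were C57BL/6 mice, 70 weeks old, on regular chow. Each group had 3 libraries, and islets of 3 mice were pooled for every library, so a replicate is a pool and not an animal. Values of single libraries are given in the order of replicates 1 to 3.

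A paraspeckle is a nuclear body built on Neat1: the RNA is its scaffold, and the proteins Sfpq, Nono and Rbm14 assemble on it. Nuclear speckles are a separate kind of body that stores splicing factors. Srrm2 and Son form their core, and Malat1 is an RNA that gathers in them. Neat1 is made as a short polyadenylated transcript and a long one that starts at the same place, and only the long one builds paraspeckles. The long Neat1 transcript and Malat1 are cut at their end by RNase P, the enzyme that trims transfer RNAs, and carry no poly(A) tail of the usual kind; a U-rich and A-rich structure protects the end in its place.

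The ends of these transcripts are shown because the libraries were labelled as poly(A) RNA and a count per gene adds the transcripts of a gene together. Sequences are from GENCODE M21 on GRCm38, a later build than the mm9 of the submitters' notes, and are written 5′ to 3′ on the minus strand of chromosome 19. Neat1 and Malat1 lie next to each other there. The short Neat1 transcript has 3004 nt in 2 exons, all of them inside the 20771 nt of the long one, which has 1 exon, so a count per gene cannot separate them. In the end of the short transcript (chr19:5842307-5842426, exonic) the capitals mark the polyadenylation signal AATAAA, which starts 20 nt before the end.
Neat1 short transcript end: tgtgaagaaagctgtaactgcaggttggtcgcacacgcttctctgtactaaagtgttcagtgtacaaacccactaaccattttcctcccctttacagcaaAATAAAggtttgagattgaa
The long Neat1 transcript (chr19:5824708-5824827, exonic) and the part of Malat1 before mascRNA (chr19:5795982-5796101, exonic), a small RNA that RefSeq places inside Malat1, ended alike. The capitals in both mark the runs of at least 8 bases they share, in the same order.
Neat1 long transcript end: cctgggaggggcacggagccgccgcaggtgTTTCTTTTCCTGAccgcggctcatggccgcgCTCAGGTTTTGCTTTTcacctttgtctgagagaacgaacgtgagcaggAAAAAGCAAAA
Malat1 end before mascRNA: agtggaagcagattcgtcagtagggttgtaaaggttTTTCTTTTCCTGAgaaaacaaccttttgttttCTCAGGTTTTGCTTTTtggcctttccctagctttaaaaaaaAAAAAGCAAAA
mascRNA: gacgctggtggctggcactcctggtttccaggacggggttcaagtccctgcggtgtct

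The 3 shared runs were 13, 16 and 11 nt long. The 16 nt run CTCAGGTTTTGCTTTT was present in 2 of 141767 GENCODE transcripts, these of Neat1 and Malat1, and its reverse complement in 0. Malat1 held a run of 12 A and Neat1 one of 5 A, each 6 nt before the end shown. AATAAA was in the last 50 nt of the longest transcript of 60.4% of the tested genes that have one, and was not in the last 50 nt of the long Neat1 transcript. The annotated Malat1 transcript runs 292 nt past the end shown and has AATAAA 22 nt before its own end. These matches describe letters and do not show which ends were sequenced.

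Library sizes and the share of ribosomal RNA differed between the genotypes. The LCS libraries held 41529670 to 68036676 counts and the WT libraries 26123654 to 34483948. Lars2, Mir6236 and the ribosomal RNA precursor gene Rn45s, called the ribosomal rows below, took 52.3% to 54.1% of the LCS counts and 7.64% to 18.5% of the WT counts. CPM below are read counts relative to library size after TMM scaling, which aligns the bulk of genes between libraries. The 6 listed islet hormone genes, insulin and glucagon among them, summed to 193385 to 288249 CPM in LCS and 159780 to 187036 CPM in WT. Of these, Ppy averaged 2479 CPM in LCS and 683 CPM in WT (log2 1.86, SE 0.30, edgeR adjusted p = 0.0172). Sst averaged 1845 and 620 CPM (log2 1.57, SE 0.48, edgeR adjusted p = 0.103). Ins1, Ins2, Gcg and Iapp had log2 fold changes from -0.03 to 0.63 and were not called. With an offset for the longest transcript length 0 of the 6 passed. Lmna itself had a mean of 67.8 CPM in LCS and 36.5 CPM in WT (log2 0.89, SE 0.34, edgeR adjusted p = 0.155); a count per gene adds lamin A and lamin C transcripts together and so does not check the genotype. Across all tested genes, 2.21% passed an edgeR adjusted p under 0.05, with 2.06% higher and 0.144% lower in LCS.

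Both noncoding RNAs were lower in LCS islets, in every library. Neat1 (gene 66961) had 913, 709.7 and 599 CPM in the LCS libraries against 1607, 2532 and 3085 CPM in the WT libraries. The groups did not overlap, and WT replicate 1 was the WT library closest to LCS. The mean was 741 ± 159 CPM in LCS and 2408 ± 747 CPM in WT (SD, n = 3), which is 3.25-fold lower in LCS (log2 -1.70, SE 0.26). In these bulk samples fewer cells that make an RNA and less of it per cell cannot be told apart.

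Malat1 (gene 72289) was lower by a smaller factor. It had 1995, 1609 and 2005 CPM in the LCS libraries against 2548, 4634 and 6023 CPM in the WT libraries. The lowest WT library again was replicate 1, and it stood above all 3 LCS libraries. The mean was 1869.9 ± 226 CPM in LCS and 4401 ± 1749 CPM in WT (SD, n = 3), or 2.35-fold lower in LCS (log2 -1.23, SE 0.29). The WT libraries spread more than the LCS libraries: the highest WT value was 2.36 times the lowest, against 1.25 times in LCS.

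The lower counts of both RNAs were also seen without TMM scaling. Together they took 0.711%, 1.16% and 1.48% of the counts that lay outside the ribosomal rows, for the WT libraries. In the LCS libraries the same share was 0.436%, 0.364% and 0.357%. The groups did not overlap in this share of raw counts.

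**Figure D1:**
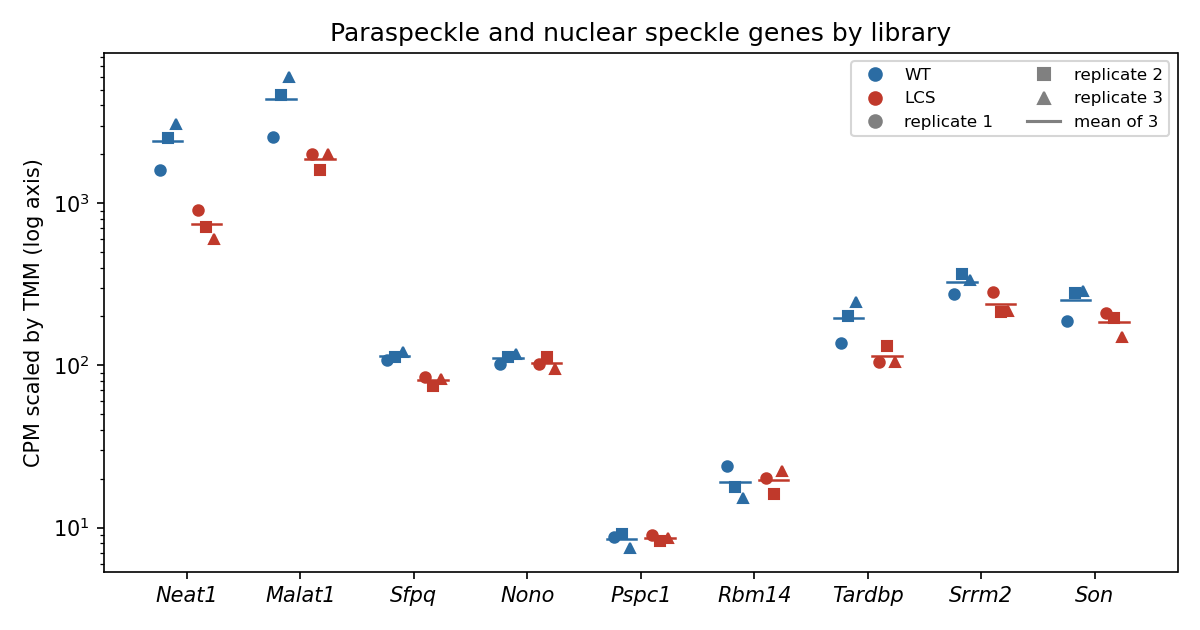
TMM-scaled CPM (log axis) of the 9 genes by library (blue for WT, red for LCS), with a marker for each replicate and the mean of 3 libraries as a bar. Neat1 (means of 2408 and 741 CPM), Malat1, Sfpq and Tardbp show no overlap between the groups. WT replicate 1 is the lowest WT library for all genes but Pspc1 and Rbm14.

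The ratio of the RNAs to each other also differed. It needs no scaling between libraries, but it was taken from counts without an offset for transcript length. There were 0.458, 0.441 and 0.299 Neat1 counts per Malat1 count in the LCS libraries. In the WT libraries there were 0.631, 0.547 and 0.512. The ranges did not overlap, and LCS replicate 3 lay below the other LCS libraries. The mean ratio was 0.399 ± 0.0873 in LCS and 0.563 ± 0.0611 in WT (SD, n = 3), a difference of -0.52 on the log2 scale, or -0.32 without LCS replicate 3. WT replicate 1, the lowest WT library for each RNA, had the highest ratio. The longest annotated transcript has 20771 nt for Neat1 and 6983 nt for Malat1. With an offset for the median transcript length, the log2 fold changes were -1.61 for Neat1 and -1.45 for Malat1. These lay nearer together than those without an offset (-1.70 and -1.23). With the longest length they were -1.32 and -0.87, and with length and GC -1.32 and -0.70. The part of transcript length in the ratio was not tested.

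**Figure D2:**
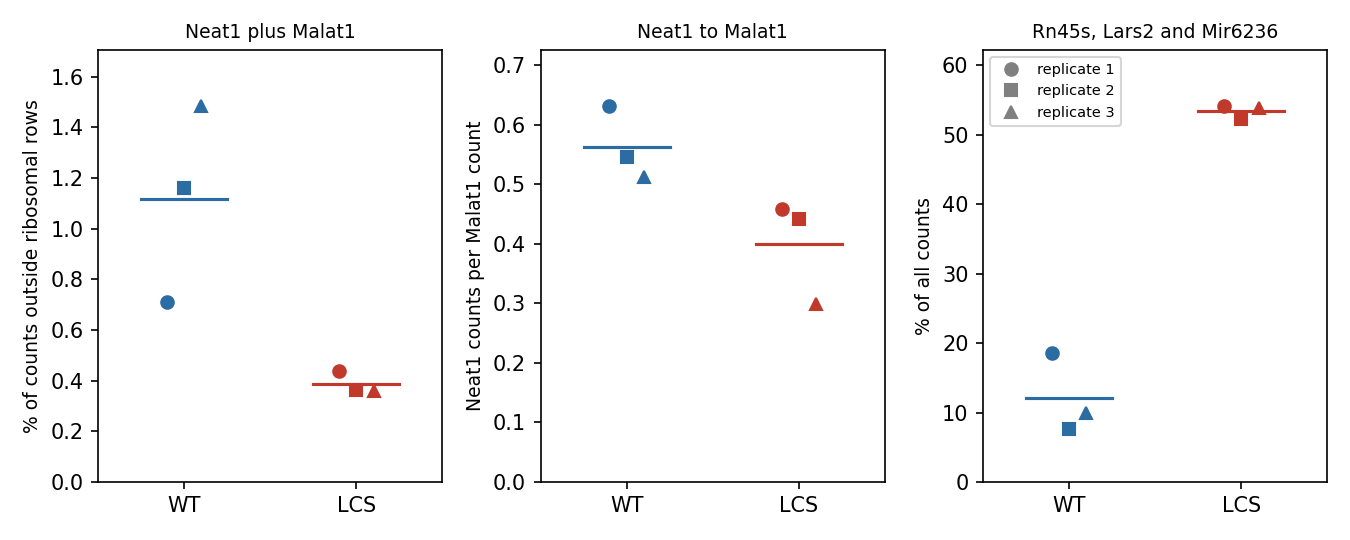
Left, Neat1 plus Malat1 as a percentage of counts outside those 3 rows; middle, Neat1 counts per Malat1 count; right, the percentage of all counts on Rn45s, Lars2 and Mir6236. Points are libraries (WT in blue, LCS in red, a marker for each replicate) and bars are means of 3. Neither Neat1 measure overlaps between groups, and WT replicate 1 has the highest ribosomal share of the WT libraries (18.5%).

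The ribosomal share and RNAs without a poly(A) tail moved the opposite way. All 11 tested RNAs of that list rose in LCS at an edgeR adjusted p under 0.05: Rn45s, Rmrp, Rpph1, Bc1, Rnu11, Rnu12, Snord17, Snora74a, Scarna2, Scarna6 and Scarna10. Their log2 fold changes ran from 3.23 (Rn45s) to 7.10 (Bc1), with a median of 4.61. Of all genes tested, 2.06% were called higher. Bc1 had 0.125, 0.148 and 0.0522 CPM and Snora74a 0.0832, 0.271 and 0.183 CPM in the WT libraries. Genes this low in WT needed the LCS libraries to pass the filter on low counts. That fixed their direction, so their calls and fold changes are only a description. With an offset for the longest transcript length 1 of the 11 passed, at a median of 3.46. Rpph1, the RNA part of RNase P, averaged 17.9 ± 15.8 CPM over the WT libraries and 908 ± 404 CPM over the LCS libraries (SD, n = 3). Within WT, replicate 1 had the largest ribosomal share (18.5% against 7.64% and 9.999%) and the lowest Neat1 and Malat1. The part of RNA selection or RNA quality in the values of Neat1 and Malat1 was not tested.

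Among the paraspeckle protein genes, Sfpq and Tardbp were lower in LCS in every library, and Nono, Pspc1 and Rbm14 overlapped. Sfpq (gene 71514) codes for an RNA- and DNA-binding protein of the same family as Nono and Pspc1, and long Neat1 needs it for its stability. It had 85.1, 74.6 and 82.1 CPM in the LCS libraries against 108, 113 and 121 CPM in the WT libraries. The libraries within each group were close together, and the groups did not overlap. The mean was 80.6 ± 5.41 CPM in LCS and 114 ± 6.35 CPM in WT (SD, n = 3). Sfpq was 1.41-fold lower in LCS (log2 -0.50, SE 0.13).

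Tardbp (gene 230908), the gene of the RNA-binding protein TDP-43, was lower with more spread. It had 104, 132 and 105 CPM in the LCS libraries against 136, 202 and 245 CPM in the WT libraries. LCS replicate 2 and WT replicate 1 almost met, at 132 and 136 CPM. Tardbp was 1.71-fold lower in LCS (log2 -0.77, SE 0.21). TDP-43 is known to lower its own messenger RNA, and the count per gene does not separate the transcripts involved.

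Nono (gene 53610), whose protein pairs with that of Sfpq, overlapped between the genotypes. It had 102, 112 and 94.9 CPM in the LCS libraries against 102, 113 and 117 CPM in the WT libraries, with a log2 fold change of -0.10 (SE 0.14). The mean was 103 ± 8.52 CPM in LCS and 110.5 ± 7.74 CPM in WT (SD, n = 3). Whether Nono and Sfpq differed in their response to genotype was not tested.

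Pspc1 (gene 66645), the smallest in counts of the family, had 8.98, 8.25 and 8.64 CPM in the LCS libraries against 8.79, 9.18 and 7.45 CPM in the WT libraries. Its log2 fold change was 0.02 (SE 0.17), and it rested on 257 to 423 counts per library. Rbm14 (gene 56275), which codes for a protein that Neat1 bodies need to form, had 20.3, 16.1 and 22.4 CPM in the LCS libraries against 24.1, 17.7 and 15.1 CPM in the WT libraries. Its log2 fold change was 0.05 (SE 0.21), and WT replicate 1 was here the highest of all libraries. On simulated counts, 9.6% of genes changed 1.5-fold passed an edgeR adjusted p under 0.05. A difference of that size in Pspc1 or Rbm14 would thus mostly not have been called after adjustment over all genes.

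The scaffold genes of nuclear speckles were lower on average, with overlap. Srrm2 (gene 75956), a very large serine- and arginine-rich protein, had 283, 212 and 217 CPM in the LCS libraries against 274, 367 and 337 CPM in the WT libraries. LCS replicate 1 exceeded WT replicate 1, and the other libraries were apart. The log2 fold change was -0.46 (SE 0.17). Son (gene 20658), which helps splicing of weak introns, had 210.1, 196 and 149 CPM in the LCS libraries against 189, 280.0 and 288 CPM in the WT libraries. Here too WT replicate 1 lay within the LCS range, and the log2 fold change was -0.45 (SE 0.20).

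Of the 9 members, 7 had a negative log2 fold change, as had 48.9% of all genes tested, with a median of -0.46 over the 9, against 0.01 over all genes tested. Neat1, Malat1, Sfpq and Tardbp did not overlap between groups; lower without overlap held for 12% of all genes tested. In the fit over all genes 1 member, Neat1, passed an edgeR adjusted p under 0.05 in the lower direction and 0 in the higher, where 0.144% and 2.06% of all genes did. Since this contrast chose the members, nothing is read from these counts. Without LCS replicate 3 the count was 0, where 0.00675% of all genes were called lower, and without WT replicate 1 it was 6 (Neat1, Malat1, Sfpq, Tardbp, Srrm2 and Son), where 7.68% of all genes were called lower and 12.5% higher. DESeq2 called 4 members lower, where it called 3.93% of all genes lower and 6.44% higher; limma-voom called 1, where it called 0.206% lower and 2.54% higher.

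**Figure D3:**
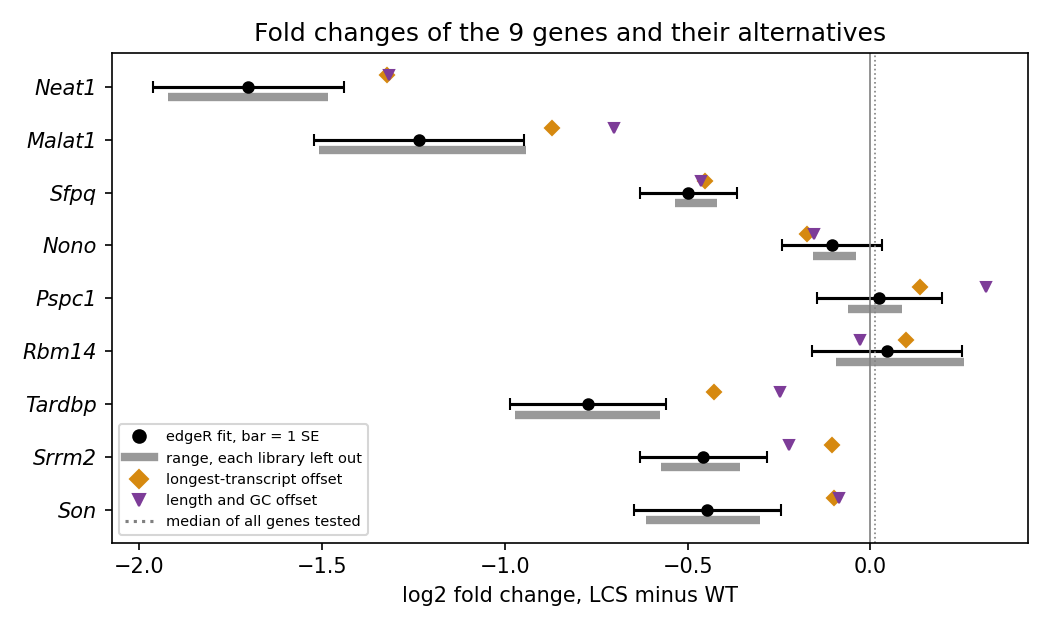
Log2 fold change (LCS minus WT) of the 9 genes from the edgeR fit with 1 SE, the range when each library is left out in turn (grey), and the values from fits with a length offset or a joint GC and length offset, both with the longest transcript. Neat1 stays between -1.92 and -1.32 in all of these, while Srrm2 and Son move from -0.46 and -0.45 to -0.11 and -0.10 with the longest-transcript offset; the median-transcript offset, not drawn, gave -0.58 and -0.26.

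Spread within a genotype differed among the members. Sfpq and Nono varied least in WT, with coefficients of variation of 5.58% and 7.01%, and stood at 6.72% and 8.30% in LCS, where Pspc1 varied least (4.27%). Malat1, Neat1 and Tardbp varied most in WT, at 39.7%, 31.0% and 28.1%. In LCS they stood at 12.1%, 21.5% and 14.1%. Across the WT libraries, 7 of the 9 members had their lowest value in replicate 1, all but Pspc1 and Rbm14.

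Levels were compared between genes per length, as mean CPM per kb of the longest annotated transcript. In WT, Malat1 stood at 630.3, Nono at 43.1, Srrm2 at 36.8, Sfpq at 32.9, Son at 28.9, Tardbp at 26.0, Rbm14 at 5.40 and Pspc1 at 2.06 CPM per kb. Neat1 stood at 116 CPM per kb if all counts came from the long transcript and at 802 if all came from the short one, so its place beside Malat1 cannot be set. The median over 13840 tested genes with a length was 3.50 CPM per kb. In LCS the values were 268 for Malat1, 40.1 for Nono, 26.8 for Srrm2, 23.3 for Sfpq, 21.2 for Son and 15.2 for Tardbp, and 35.7 or 247 for Neat1. By the longest transcript Nono was above the other protein genes in both genotypes. The median transcript lengths were 687 nt for Nono and 814 nt for Srrm2, with means of 110 and 326 CPM in WT. By those lengths Srrm2 would stand above Nono. The neighbours Srrm2, Sfpq, Son and Tardbp lay close together in WT, and their order depends on the annotated lengths.

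Transcript length moved with the fold change across all genes. Nono, Sfpq and Rbm14 were in the class of 2000 to 4000 nt, which held the most genes, and the other 6 members in longer classes. Genes with a longest transcript shorter than 1000 nt had a median log2 fold change of 0.75. The median was 0.06 in the class of 2000 to 4000 nt, -0.19 in that of 4000 to 8000 nt and -0.31 in the class of 8000 nt and longer. Srrm2 (8864 nt) and Son (8731 nt) lay only -0.15 and -0.14 from the median of their class, and 30.1% and 31.7% of the 827 genes of that class were lower than they were. Neat1 (20771 nt) lay -1.39 from that median, and 1 gene of the class was lower. Malat1 (6983 nt) and Tardbp (7477 nt) lay -1.04 and -0.58 from the median of the 4577 genes of their class, with 29 and 214 genes lower.

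With a loess offset for the longest transcript length, the log2 fold change was -1.32 for Neat1, -0.87 for Malat1, -0.43 for Tardbp, -0.45 for Sfpq, -0.11 for Srrm2 and -0.10 for Son. With the median length over a gene's transcripts in its place, an alternative added after the data were seen, Malat1, Tardbp, Sfpq and Srrm2 were further from 0 than without an offset, and Neat1 and Son were nearer to it. They were then -1.61 for Neat1, -1.45 for Malat1, -0.90 for Tardbp, -0.62 for Sfpq, -0.58 for Srrm2 and -0.26 for Son. The median length was 2017 nt for Neat1, 606 nt for Malat1 and 814 nt for Srrm2, so the values of the members depend on which annotated length is used. Neat1 and Malat1 kept their sign in each of the 17 alternatives run. Srrm2 and Son lay between the 10% and 90% points of their class, -0.71 and 0.17. Which Neat1 transcript was counted is not given in the sources used here.

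**Figure D4:**
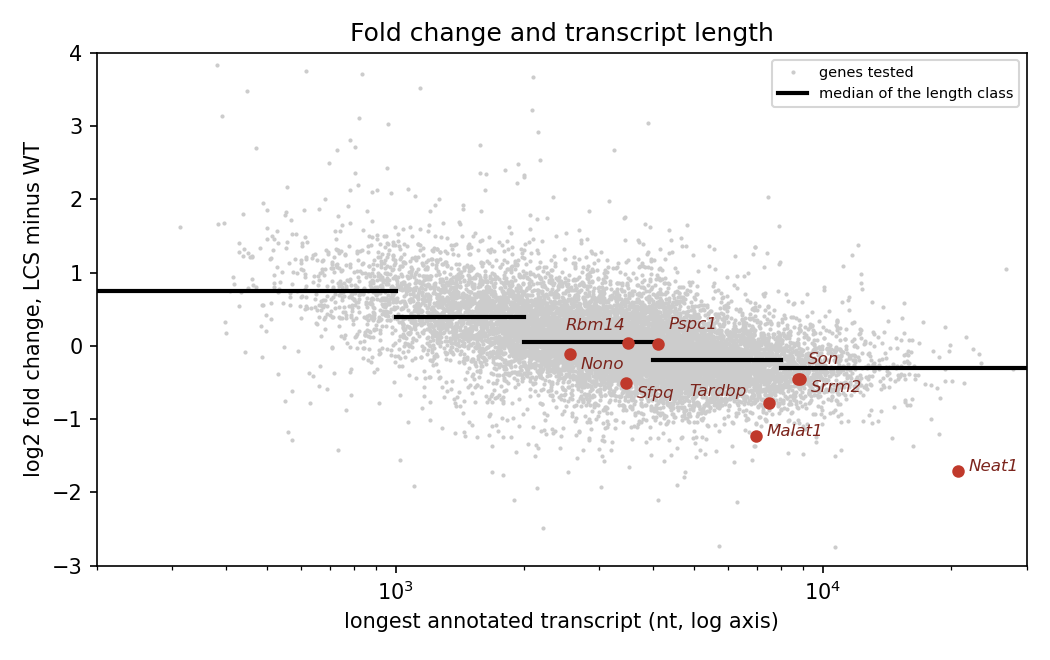
Log2 fold change, LCS minus WT, for tested genes with an annotated length against their longest transcript (nt, log axis), with the median of each of 5 length classes as a black line and the 9 genes in red. Srrm2 and Son lie near their class median of -0.31, and Neat1 at -1.70 and Malat1 at -1.23 lie well below theirs; a few genes fall outside the axes.

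Other genes of the same bodies were taken from lists. Of 36 other paraspeckle proteins, 1 fell and 0 rose at an edgeR adjusted p under 0.05 (2.78% lower, against 0.144% of all genes), with a median log2 fold change of -0.24. The gene that fell was Hnrnpa1, which codes for an RNA-binding protein that acts in splicing. It had 5.42, 6.30 and 7.18 CPM in the LCS libraries against 9.88, 12.4 and 16.1 CPM in the WT libraries (2.03-fold lower, log2 -1.02, SE 0.22, edgeR adjusted p = 0.043). The groups did not overlap, but the call was lost in 8 of 16 alternatives; with the longest-transcript offset the log2 fold change stayed at -1.01, at an edgeR adjusted p = 0.093. Hnrnpa1 has near-identical copies, so its count is uncertain. At an unadjusted p under 0.05, 12 of 36 were lower and 1 higher, against 10.8% lower and 13.3% higher of all genes. DESeq2 called 7 lower and limma-voom 1, both with 0 higher. Of all genes they called 3.93% and 0.206% lower, and 6.44% and 2.54% higher. Leaving out WT replicate 1 gave 12 lower and 4 higher, where 7.68% of all genes were called lower and 12.5% higher. Leaving out any other library gave 0 of either.

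The next members by p did not pass the test. Cpsf7, a subunit of a cleavage factor that acts at polyadenylation sites, had a log2 fold change of -0.53 (SE 0.14, edgeR adjusted p = 0.0787). Hnrnph1, a splicing regulator, was at -0.51 (SE 0.14, edgeR adjusted p = 0.0856) and Cpeb1, which binds the ends of messenger RNAs, at -0.50 (SE 0.14, edgeR adjusted p = 0.0907). With the longest-transcript offset Cpsf7, Hnrnph1 and Cpeb1 were at -0.48, -0.33 and -0.49. Length and GC gave -0.47, -0.06 and -0.47, and the median-transcript offset gave -0.62, -0.63 and -0.64. For these 3 genes, too, no LCS library overlapped a WT library. In the list, 10 of 36 genes (27.8%) were lower without overlap, against 12% of all genes tested and 9.08% and 21.5% of all genes in the length classes from 2000 to 4000 nt and from 4000 to 8000 nt; the median length of the list was 3769 nt.

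Of 50 other nuclear speckle proteins, 1 fell and 0 rose (2.0% lower, against 0.144% of all genes), with a median log2 fold change of -0.19. Srsf1, an SR splicing factor, had 88.5, 85.3 and 70.4 CPM in the LCS libraries against 115, 138 and 155 CPM in the WT libraries (1.67-fold lower, log2 -0.74, SE 0.16, edgeR adjusted p = 0.0482). The groups were apart, and the call was lost in 9 of 17 alternatives; it was at log2 -0.48 with the longest-transcript offset and -0.87 with the median-transcript offset (edgeR adjusted p = 0.133 and 0.0629). Rbm25 and Pnn, both splicing proteins, and the kinase gene Prpf4b were at -0.69, -0.62 and -0.80 and did not pass (edgeR adjusted p = 0.0746, 0.0772 and 0.1). With the longest-transcript offset Rbm25, Pnn and Prpf4b were at -0.50, -0.57 and -0.47. Length and GC gave -0.24, -0.42 and -0.28, and the median-transcript offset gave -0.82, -0.58 and -0.92. DESeq2 called 1 member higher and 9 lower, where it called 6.44% of all genes higher and 3.93% lower. With limma-voom 0 were higher and 1 lower, against 2.54% and 0.206% of all genes. An unadjusted p under 0.05 was reached by 15 of 50 lower and 4 higher, where 10.8% and 13.3% of all genes did. Leaving out WT replicate 1 gave 15 lower and 4 higher, where 7.68% of all genes were called lower and 12.5% higher. Leaving out any other library gave 0 of either. Lower without overlap held for 15 of 50 (30.0%), against 12% of all genes tested. In the length classes from 2000 to 4000 nt and from 4000 to 8000 nt it held for 9.08% and 21.5% of all genes. The median length of the list was 3986 nt.

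Among 14 genes for the ends of Neat1 and Malat1 (RNase P and RNase MRP proteins, Elac2, Mettl16, Drosha and Dgcr8), 1 rose and 0 fell (7.14% higher, against 2.06% of all genes), with a median log2 fold change of 0.17. Pop5, a protein subunit of RNase P and RNase MRP, had 19.1, 16.9 and 26.2 CPM in the LCS libraries against 11.8, 8.24 and 8.10 CPM in the WT libraries (log2 1.14, SE 0.22, edgeR adjusted p = 0.0313). No library overlapped, and the call was lost in 6 of 17 alternatives; it was at log2 0.81 with the longest-transcript offset and 0.88 with the median-transcript offset (edgeR adjusted p = 0.08 and 0.0759). Rpp21, another subunit, was at 1.12 (SE 0.25), and Pop7 and Rpp25, which bind the RNA part as a pair, at 0.63 and 0.59 (edgeR adjusted p = 0.054, 0.121 and 0.276). With the longest-transcript offset Rpp21, Pop7 and Rpp25 were at 0.38, 0.03 and 0.19. The median-transcript offset gave 0.82, 0.50 and 0.54, and length and GC gave 0.20, -0.07 and -0.0075. The median length of the list was 2257 nt. At an unadjusted p under 0.05, 3 of 14 were higher and 0 lower (all genes 13.3% and 10.8%), DESeq2 called 2 higher, and limma-voom 1 higher. Of all genes, DESeq2 called 6.44% higher and limma-voom 2.54%. The count of higher genes was 3 without WT replicate 1, where 12.5% of all genes were called higher. It was 2 without LCS replicate 2, where 262 genes were called higher in all, and 0 without any other library.

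Other long noncoding RNAs gave no call. Of 21 tested, 0 rose and 0 fell in edgeR, with a median log2 fold change of -0.33; an unadjusted p under 0.05 was reached by 5 of 21 in the higher and 9 in the lower direction (all genes 13.3% and 10.8%), DESeq2 called 2 higher and 7 lower, and limma-voom called 0. Meg3, an imprinted nuclear RNA, had 756, 604 and 487 CPM in the LCS libraries against 822, 1788 and 1796 CPM in the WT libraries (log2 -1.25, SE 0.30, edgeR adjusted p = 0.0582). As for Neat1, WT replicate 1 was the WT library nearest to LCS. Tug1, Snhg11 and 2900097C17Rik (Norad) were at -0.61, -1.07 and -0.76 (edgeR adjusted p = 0.0857, 0.0876 and 0.0889); Snhg11 overlapped between groups. Without WT replicate 1, 10 of the list were called lower and 1 higher, where 7.68% and 12.5% of all genes were. DESeq2 called 6.44% of all genes higher and 3.93% lower.

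**Figure D5:**
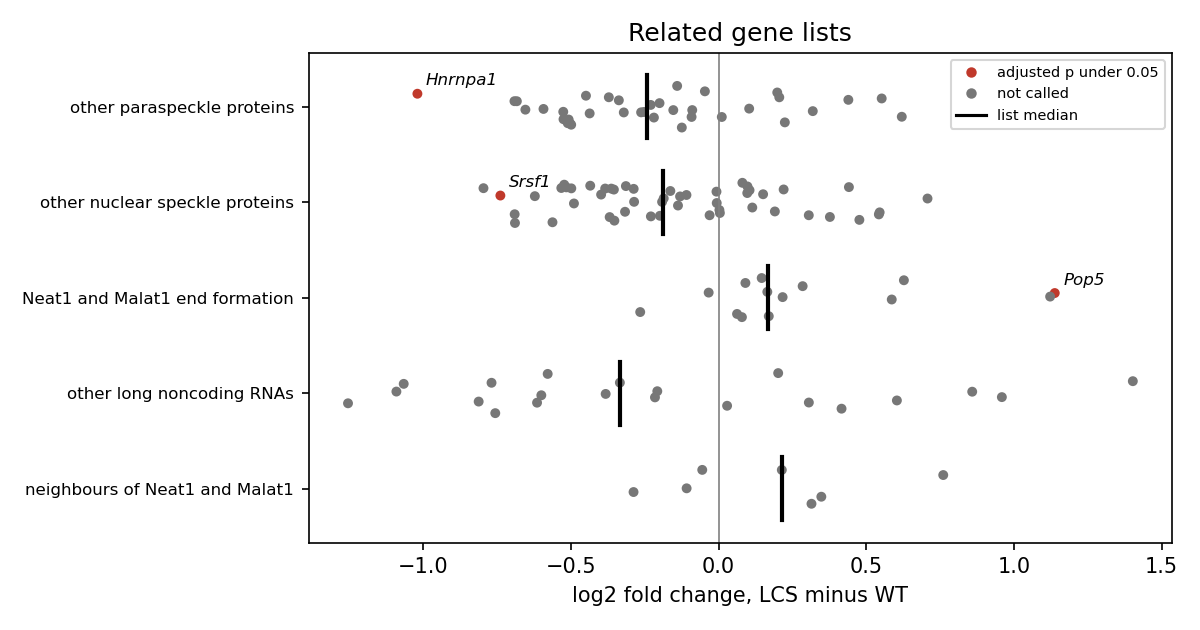
Members of 5 gene lists by log2 fold change, LCS minus WT; red points with names had an edgeR adjusted p under 0.05, and black bars are list medians. Hnrnpa1 and Srsf1 are the called members on the left and Pop5 on the right; the medians run from -0.33 for other long noncoding RNAs to 0.21 for the neighbours of Neat1 and Malat1.

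The listed genes around Neat1 and Malat1 on chromosome 19 gave no call. The list leaves out Znrd2 and Fam89b, which lie between Ltbp3 and Ehbp1l1. Of 7 neighbours, 0 passed the edgeR test in either direction, and 0 did at an unadjusted p under 0.05. DESeq2 and limma-voom called 0. Without WT replicate 1, 2 were called higher, where 12.5% of all genes were. Frmd8, next to Neat1, was at a log2 fold change of 0.31 (SE 0.26). Ltbp3 was at 0.21, Tigd3 at 0.76 (SE 0.39), Dpf2 at -0.11, Ehbp1l1 at -0.06 and Slc25a45 at -0.29 (SE 0.35). Tigd3 and Slc25a45 had few counts, with means of 1.25 and 0.745 CPM in LCS and 0.735 and 0.899 CPM in WT. For Frmd8, Ltbp3 and Ehbp1l1, WT replicate 1 was the highest of all 6 libraries.

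Genes with the most similar profile were sought among 7638 other genes with a mean of at least 10 CPM, by the root mean square difference of log2 CPM over the 6 libraries after centring each gene. The most similar to Neat1 were Tmem181b-ps (0.19), Ttc14 (0.28) and Meg3 (0.28), and Malat1 ranked 7 (0.34). The most similar to Malat1 were A330023F24Rik (0.23), Meg3 (0.24) and 2410021H03Rik (0.25), with Tardbp at rank 29 and Neat1 at rank 45. Srrm2 was closest to Npnt, Rrnad1 and Nxf1 (0.05 to 0.07), and Son to Kmt2a, Adam22 and Baz2b (0.04 each). These likenesses are over 6 libraries in which genotype and depth change together.

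Among markers of other cells, mainly those of acinar cells moved. In edgeR, 1 of 8 tested leukocyte markers (Lyz2) rose, and 0 of 6 duct, 8 endothelial and 8 stromal markers were called. Of all genes tested, 2.06% rose. Of 19 tested acinar markers 17 rose (median log2 fold change 1.86), or 7 with the longest-transcript offset (median 1.46), and the 22 listed summed to 604 to 1039.9 CPM in LCS and 203 to 307 CPM in WT; 1 of them was at 0 in all libraries. Endothelial markers summed to 175 to 193 CPM in LCS and 141 to 173 CPM in WT, leukocyte markers to 110 to 155 and 81.9 to 104 CPM, duct markers to 528 to 644 and 320 to 627 CPM, and stromal markers to 35.1 to 65.9 and 32.2 to 95.5 CPM. The part of these cells in the values of the 9 members was not tested. Overlapping genes could share reads with 5 members, since the strand setting of the counting is not given. Elob, which overlaps Srrm2 in RefSeq, had 24.2% as many counts as Srrm2, Zmym1 5.50% as many as Sfpq, Donson 1.19% as many as Son, Masp2 0.132% as many as Tardbp, and Gm21992, which overlaps Rbm14, had 0 counts.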

How the data were processed

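Poly(A) RNA of pooled islets was sequenced after TRIzol extraction and a stranded TruSeq preparation, per the labels' protocols. The authors deposited raw counts per gene; the submitters' processing notes name mm9 and the tools HTSeq 0.9.0, Bowtie2 2.2.9, TopHat2 2.1.1, FastQC and bcl2fastq 2.20, without roles. The sources used here give neither the annotation nor the strand setting. The labels gave each library its genotype; replicate numbers follow accession order.

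The count test was that of edgeR 4.0.16 under R 4.3.3 (filterByExpr, TMM, quasi-likelihood test, genotype as the only term, all 6 libraries) and Benjamini-Hochberg adjustment over 14539 genes. Fold changes are LCS over WT, and log2 CPM used a prior count of 2. Total depth was 26123654 to 68036676 counts per library. Alternatives used limma 3.58.1 (voom), DESeq2 1.42.0, other filters and loess offsets (span 0.5) for length or GC, found for 95.2% of tested genes, with the longest GENCODE M21 transcript. On simulated counts of 14539 genes for this comparison, 9.6%, 54% and 97.6% of genes changed 1.5-fold, 2-fold and 4-fold were called. Of the calls, 7.8% were false.

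Members and lists were chosen with earlier results of these data known. List symbols numbered 216, of which 212 were found. Named were all 9 members; of 4 lists (other paraspeckle proteins, other nuclear speckle proteins, end formation, other long noncoding RNAs) the called members and at least 4 by p; the tested neighbours, of which 1 is not reported here by name; and the 3 nearest profiles of Neat1, Malat1, Srrm2 and Son. The tested RNAs without a poly(A) tail are named beside Neat1. Figures used matplotlib 3.10.9.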

Additional observations from a re-analysis of the deposited data

How the results depend on the processing

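No paired analysis was possible because the groups share no replicate numbers in the labels. Without each library in turn, the log2 fold change ran from -1.92 to -1.48 for Neat1, -1.51 to -0.94 for Malat1, -0.53 to -0.42 for Sfpq, -0.97 to -0.58 for Tardbp, -0.57 to -0.36 for Srrm2, -0.62 to -0.30 for Son, -0.16 to -0.04 for Nono, -0.06 to 0.09 for Pspc1 and -0.09 to 0.26 for Rbm14, and the log2 ratio of Neat1 to Malat1 from -0.63 to -0.32. Pspc1 and Rbm14 thus had no stable sign. In the same runs genes called higher numbered 81 to 1857 and lower 1 to 1142, members called lower 0 to 6, other paraspeckle proteins 0 to 4 higher and 0 to 12 lower, other speckle proteins 0 to 4 higher and 0 to 15 lower, end formation genes 0 to 3 higher, and other long noncoding RNAs 0 to 1 higher and 0 to 10 lower. The upper ends are without WT replicate 1, where 7.68% of all genes were called lower and 12.5% higher.

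Against 300 genes higher and 21 lower, the DESeq2 test gave 937 and 571, no filter 560 and 126, the offset for the longest transcript 37 and 3, for the median transcript 91 and 7, for length and GC 184 and 37, and leaving out WT replicates 1 and 2 gave 884 and 331. Members called lower were 4 with DESeq2, which called 3.93% of all genes lower and 6.44% higher. With no filter 3 members were called lower, beside the 126 genes lower in all, and the number tested in that run is not given here. Lists with DESeq2 gave 7 paraspeckle proteins lower, 1 speckle protein higher and 9 lower, 2 end formation genes higher, and 2 long noncoding RNAs higher and 7 lower. With no filter 2 speckle proteins were lower, 2 end formation genes higher and 2 long noncoding RNAs lower. Without WT replicates 1 and 2 the counts were 1 higher and 4 lower, 2 higher and 5 lower, 2 higher, and 1 higher and 6 lower. Paraspeckle proteins lower were 0 with either length offset and among protein-coding genes. They were also 0 at a mean of 10 CPM, but that filter removed Hnrnpa1, the only called gene of the list, before the test. Speckle proteins lower were 0 with the length and the length and GC offsets and among protein-coding genes. End formation genes higher were 0 with either length offset.

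Members moved by more than the spread of their libraries in these runs: Tardbp (-0.43), Srrm2 (-0.11) and Son (-0.10) with the longest-transcript offset; Malat1 (-0.70), Tardbp (-0.25), Srrm2 (-0.22), Son (-0.0861) and Pspc1 (0.32) with length and GC; Sfpq (-0.62) and Nono (-0.26) with the median-transcript offset; Pspc1 (0.21) and Rbm14 (0.37) without WT replicates 1 and 2, where the lone WT library is assumed to vary like the others. The cause was not tested. The median-transcript, GC and protein-coding runs were chosen after seeing the data. The Pspc1 value could not be had at a mean of 10 CPM. At this depth and number of libraries, differences of 1.5-fold were mostly not called at an edgeR adjusted p under 0.05 in the simulated counts.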
